A study of Rattus norvegicus with 6 samples.

Results

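Genes that make, sense and move cholesterol were examined in whole brain of rats (Rattus norvegicus) at birth, after caloric restriction (CR) of the dam or in control pups. The members were 30 genes chosen by name, and 28 of them had a row under that name among the 30498 gene rows of each deposited table: 16 of 18 synthesis enzymes, 5 of 5 sterol-sensing genes and 7 of 7 genes of transport and turnover. Fdps, the farnesyl diphosphate synthase gene, and Nsdhl, a sterol dehydrogenase gene, were not analysed here. The restriction of the dam served as a model of fetal growth restriction. Delivery was by Caesarean section and dissection of the brain followed at once. The labels give 3 control and 3 CR libraries of polyadenylated RNA, all from whole brain. They name no strain, sex, litter, degree or timing of restriction, and do not say whether each library is its own pup or litter, so p-values here measure only the spread among 6 libraries, which may be partly technical.

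Cholesterol does not cross the blood-brain barrier in useful amounts, and the brain makes nearly all of its own. Acetyl-CoA is built up to mevalonate and isopentenyl diphosphate, these units are joined to squalene, and squalene is closed into lanosterol and trimmed to cholesterol. The transcription factors SREBP-2 (Srebf2) and SREBP-1 (Srebf1) are held in the endoplasmic reticulum by the escort protein SCAP and the INSIG proteins while sterol is plentiful. When sterol falls they travel to the Golgi, are cut, and switch on the genes of the pathway, Insig1 among them. Astrocytes pass cholesterol to neurons on particles that carry apolipoprotein E (Apoe), loaded by transporters such as ABCA1, and neurons remove the excess as an oxysterol made by the enzyme CYP46A1.

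SREBPs act on sterol promoters together with the factors NF-Y and Sp1, so the proximal promoters of 4 members are shown, 2 whose RNA was higher in CR (Mvk, Insig1) and 2 whose RNA was lower (Idi1, Msmo1). Each line gives the 200 bases before the annotated start, 5′ to 3′ on the gene's strand, from RefSeq on build GRCr8. The positions are chr12:47819504-47819703 (minus strand) for Mvk, chr4:8057770-8057969 (minus strand) for Insig1, chr17:66547525-66547724 (minus strand) for Idi1 and chr16:29746913-29747112 (plus strand) for Msmo1. Capitals mark CCAAT, the core of the NF-Y motif, or the same letters read on the other strand.
Mvk: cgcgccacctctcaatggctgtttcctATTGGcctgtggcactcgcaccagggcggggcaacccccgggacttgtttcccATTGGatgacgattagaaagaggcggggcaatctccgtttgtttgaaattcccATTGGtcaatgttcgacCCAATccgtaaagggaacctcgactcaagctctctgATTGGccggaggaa
Insig1: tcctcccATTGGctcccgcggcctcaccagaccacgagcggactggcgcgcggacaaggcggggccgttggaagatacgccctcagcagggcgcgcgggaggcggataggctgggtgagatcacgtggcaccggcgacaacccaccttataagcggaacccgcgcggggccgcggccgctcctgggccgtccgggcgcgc
Idi1: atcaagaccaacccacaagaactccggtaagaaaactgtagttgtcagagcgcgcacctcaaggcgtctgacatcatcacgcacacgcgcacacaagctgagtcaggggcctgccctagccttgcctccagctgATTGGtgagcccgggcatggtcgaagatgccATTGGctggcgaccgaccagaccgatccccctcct
Msmo1: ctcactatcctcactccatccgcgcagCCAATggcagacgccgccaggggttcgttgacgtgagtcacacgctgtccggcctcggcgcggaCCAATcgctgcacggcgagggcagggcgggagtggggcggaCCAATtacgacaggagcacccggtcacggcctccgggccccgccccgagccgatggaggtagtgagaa

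These stretches hold 5 CCAAT matches in Mvk, 1 in Insig1, 2 in Idi1 and 3 in Msmo1, so the letters stand before genes that were higher and before genes that were lower. RefSeq windows of 300 bases (250 before to 50 after the start) were at hand for 26 of the 30 members, in 29 windows, since Apoe has 3 and Srebf1 has 2. Sqle, Fdft1, Pmvk and Stard4 had none. On either strand, CCAAT was in 22 of the 29 windows (75.9%), against 36.9% of the 11415 windows of tested genes and 37.5% of all 33469 windows. The Sp1 core GGGCGG was in 25 of 29 windows (86.2%), against 61% of windows of tested genes and 33.1% of all. The SREBP element, searched as TCACNCCAC, was in 0 of the 29 windows, against 1.03% and 1.12%. With so rare a string, 29 windows are too few to tell the members from other genes, and other forms of the element were not searched. Some Apoe windows share bases, so the same match can count more than once. Counted by member, CCAAT was in 20 of 26 (76.9%) and GGGCGG in 23 of 26 (88.5%). The 26 include Fdps and Nsdhl, whose RNA was not analysed. Overlaps between motifs were not removed, and the matches are a description of letters, with no binding measured here.

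Values are FPKM, reads scaled to the exon length of the gene and to the reads assigned in that library. Levels set side by side between genes therefore rest on the deposited exon lengths, which may exceed the transcript expressed. Fdft1, with 12374 exon bases and 3105 to 5833 reads, had a lower FPKM than Sqle, with 2792 bases and 2622 to 5247 reads. Assigned reads, worked out from the FPKM, came to 14030961 to 25345354 in control and 22161522 to 25734737 in CR libraries, and a member had between 127 reads (Hsd17b7) and 23122 reads (Hmgcs1) in a library. Per gene, log2(FPKM + 1) was compared between the groups with limma, over the 15247 genes that averaged 0.5 FPKM or more, and called at a Benjamini-Hochberg adjusted p of 0.05. Of all genes tested, 33.9% were called, 17.7% as higher and 16.2% as lower in CR. Y-linked RNA, summed over 3 genes, was at 50.2 FPKM in control replicate 3 and at 48.4 and 46.2 FPKM in CR replicates 1 and 3. In control replicates 1 and 2 and CR replicate 2 it was at 0.179, 0.109 and 0.362 FPKM, so its presence was not balanced between the groups. The libraries also differed by group in regional markers. The 8 dorsal telencephalic markers, which include Neurod6, Emx1 and Tbr1, summed to 496 to 616 FPKM in control and to 177 to 282 FPKM in CR. The 14 markers of diencephalon, midbrain, hindbrain and cerebellum summed to 6.51 to 18.6 and 149 to 201 FPKM, with 13 higher and none lower. Of the 14, Tcf7l2 had the highest control mean, at 8.78 FPKM (52.7 in CR). En2, Barhl1 and Tph2 averaged 0.0136, 0.0697 and 0.220 FPKM in control and 5.09, 7.84 and 5.27 FPKM in CR. The 6 neuronal markers summed to 2728 to 3051 and 2827 to 2884 FPKM, but Tubb3 and Stmn2 gave most of this sum and moved in opposite directions. Tubb3 averaged 1465 FPKM in control and 1276 in CR (not past the threshold), and Stmn2 1069 and 1236 FPKM (higher). Of the 6, 3 were higher, none lower and 3 did not pass. In bulk RNA, fewer cells of a type and less RNA per cell cannot be told apart. Whether the libraries held the same parts of the brain was not tested, and neither was the part of these regional differences in the results below.

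The pathway did not shift as a block between CR and control brains. Of the 28 members, all of which were tested, 5 rose (Mvk, Tm7sf2, Insig1, Srebf1 and Apoe), 4 fell (Idi1, Msmo1, Dhcr7 and Srebf2) and 19 did not pass. The called share, 32.1%, was near the 33.9% of all genes, and so was the share of members whose groups did not overlap (14 of 28, with 10 above and 4 below, against 50.3% of all genes tested, with 26.1% above and 24.3% below). The median log2 fold change of the members was 0.05, against 0.01 over all genes, and their median absolute log2 fold change was 0.14, against 0.20. Apart from Apoe, which was 1.97-fold higher in CR, every member had group means within 1.46-fold of each other. Calls on changes of this size were sensitive to single libraries. Without CR replicate 2 there were 2 higher and 2 lower members, and without CR replicate 3 there were 2 and 3. Without control replicate 2 or without CR replicate 1 the lower members numbered 2. With no filter on low values 1 member was higher and 4 were lower. The calls of Insig1, Idi1 and Msmo1 held in all 17 alternatives run.

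**Figure D1:**
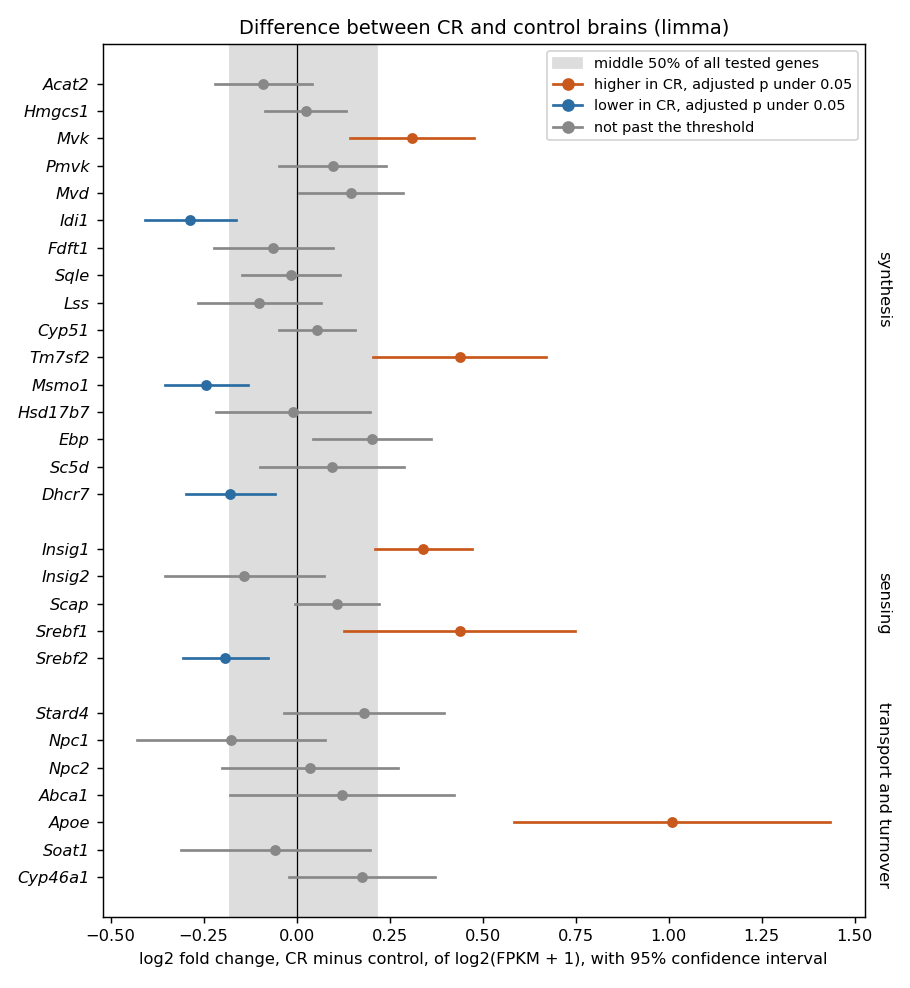
Log2 fold change of each member (CR minus control, on log2(FPKM + 1)) with its 95% confidence interval from limma, ordered by role and, within synthesis, by place in the pathway. Orange marks 5 genes higher in CR, blue 4 genes lower, grey 19 not past the threshold, and the grey band holds the middle 50% of all 15247 genes tested; Apoe lies farthest from 0, at a log2 fold change of 1.0098.

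Expression of the synthesis enzymes, in FPKM on the deposited exon lengths, spanned a wide range that both groups shared. Hmgcs1, the HMG-CoA synthase gene, led in control at 237 ± 10.4 FPKM (mean ± SD, n = 3 here and below) and made up 31.9% to 33.0% of the summed FPKM of the 16 enzymes in control and 32.9% to 33.8% in CR. Idi1, Msmo1, Sqle and Cyp51 followed in control at group means of 77.8, 74.2, 69.2 and 66.0 FPKM. The control values of Idi1 (74.7 to 82.2 FPKM) overlapped those of Msmo1 (71.6 to 78.0), which overlapped those of Sqle (66.5 to 74.1), which overlapped those of Cyp51 (63.2 to 68.5). Pmvk and Acat2 stood at 44.8 and 36.1 FPKM in control, the enzymes from Sc5d down to Tm7sf2 lay between 25.4 and 9.04 FPKM, and Ebp and Hsd17b7 were lowest at 8.97 and 5.19 FPKM. The order changed in CR, where Cyp51 (68.6 FPKM) and Sqle (68.4) stood above Idi1 (63.6) and Msmo1 (62.5). Summed over the 16 enzymes, control libraries were at 716, 752 and 727 FPKM and CR libraries at 713, 715 and 732 FPKM. The sums overlapped, and the mean in CR was 0.984 times that in control (exact permutation test, two-sided p = 0.5, where 3 against 3 libraries cannot go below 0.1).

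**Figure D2:**
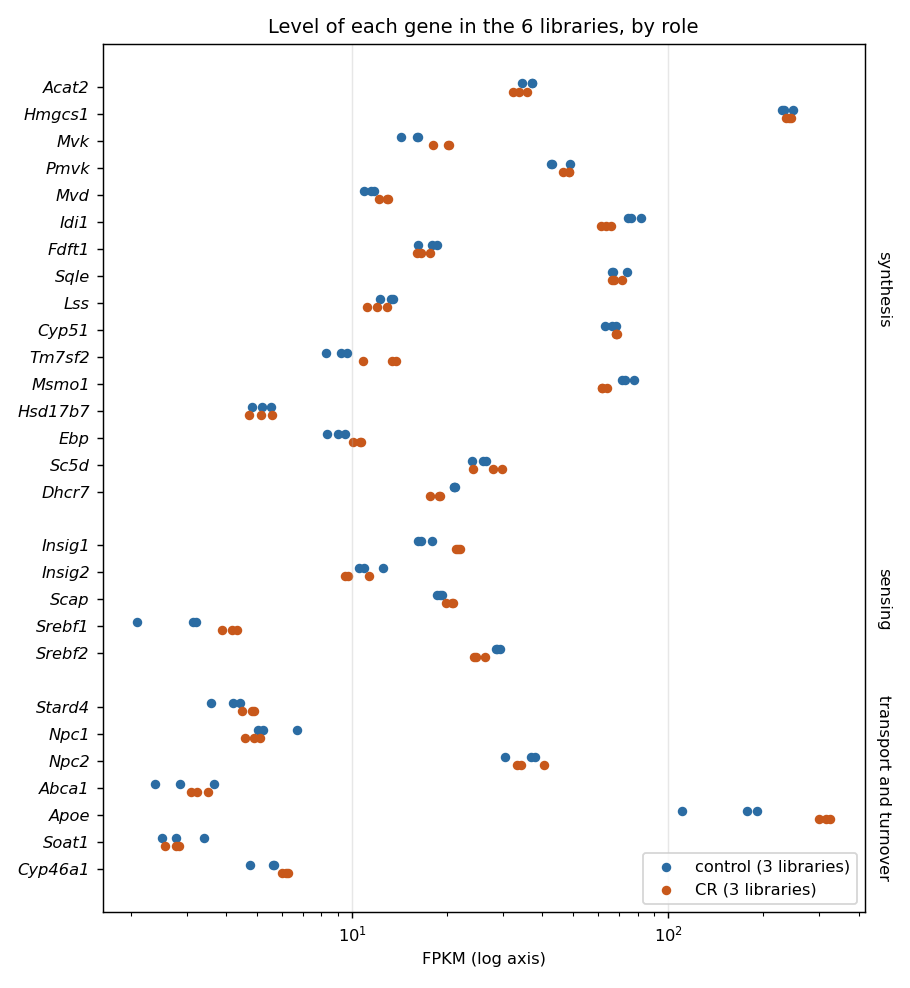
FPKM of each member in every library on a log axis, with 3 control libraries in blue and 3 CR libraries in orange, grouped by role. Levels run from about 2 FPKM (Srebf1, Abca1) to over 200 FPKM (Hmgcs1 and, in CR, Apoe).

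The steps from acetyl-CoA to isopentenyl units held 1 enzyme that rose and 1 that fell. Mvk, which encodes mevalonate kinase (chromosome 12, 42141384 to 42158882 on mRatBN7.2, the build of all gene positions below), had 16.2, 16.1 and 14.3 FPKM in the control libraries and 18.04, 20.3 and 20.1 FPKM in the CR libraries, in replicate order here and below. All 3 CR values lay above the control values. It rose by 0.31 on the log2 scale (SE 0.0716, limma adjusted p = 0.0142). Leaving out CR replicate 2 or 3 ended the call (adjusted p = 0.0582 and 0.0584), as did testing genes of any level (0.0642). Idi1, whose product converts isopentenyl into dimethylallyl diphosphate (chromosome 17, 61629594 to 61637357), was at 74.7, 82.2 and 76.5 FPKM in control and at 66.0, 61.3 and 63.6 FPKM in CR. Each CR library was below each control library, and Idi1 fell by 0.29 (SE 0.0523, adjusted p = 0.0059). Some 3.54% of its exon bases are shared with Wdr37 on the opposite strand. Wdr37 stood at 11.2 to 12.3 FPKM in control and 13.0 to 13.9 FPKM in CR. The part of Wdr37 reads in the Idi1 values was not tested.

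The other enzymes of these steps did not pass. Hmgcs1 was at 230, 249 and 232 FPKM in control and 241, 236 and 245 FPKM in CR, and its interval for the log2 fold change ran from -0.09 to 0.13 (adjusted p = 0.725). The CR values of Hmgcs1 all fell inside the control range. Acat2, the cytosolic thiolase that opens the pathway, had a log2 fold change of -0.09 (95% interval -0.22 to 0.04) and Pmvk, phosphomevalonate kinase, one of 0.10 (-0.05 to 0.24). Pmvk passed without control replicate 3 (adjusted p = 0.0344). Mvd, the decarboxylase that yields isopentenyl diphosphate, had 10.9 to 11.8 FPKM in control and 12.2 to 13.0 FPKM in CR, without overlap, but did not pass (log2 fold change 0.15, adjusted p = 0.0970).

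None of the 3 enzymes that form squalene and close it into lanosterol passed the threshold. Fdft1, squalene synthase, was at 17.5 ± 1.27 FPKM in control and 16.7 ± 0.812 FPKM in CR (log2 fold change -0.06, 95% interval -0.22 to 0.10, adjusted p = 0.515). Sqle, the squalene epoxidase and a rate-limiting enzyme of the pathway, was at 66.9, 74.1 and 66.5 FPKM in control and 66.5, 67.5 and 71.3 FPKM in CR (log2 fold change -0.01, 95% interval -0.15 to 0.12, adjusted p = 0.862). Lss, lanosterol synthase, was at 13.0 ± 0.638 and 12.04 ± 0.863 FPKM (log2 fold change -0.10, 95% interval -0.27 to 0.06, adjusted p = 0.307). The groups overlapped for all 3 of them.

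The enzymes that trim lanosterol to cholesterol included 1 that rose and 2 that fell. Tm7sf2, a sterol reductase gene that acts just after Cyp51 (chromosome 1, 203355931 to 203360270), was at 9.23, 9.63 and 8.27 FPKM in control and at 10.8, 13.3 and 13.8 FPKM in CR. CR replicate 1 was the CR library closest to control, and the groups did not overlap. It rose by 0.44 (SE 0.1002, adjusted p = 0.0137), and leaving out CR replicate 2 or 3 (0.0561 and 0.0550) or dropping the filter on low values (0.0785) ended the call. Msmo1, a methylsterol oxidase gene of the next steps (chromosome 16, 24980697 to 24998016), was at 71.6, 72.9 and 78.0 FPKM in control and at 61.6, 64.1 and 61.7 FPKM in CR. All 3 CR values were lower, and Msmo1 fell by 0.24 (SE 0.0479, adjusted p = 0.00784). Dhcr7, which catalyses the last reduction to cholesterol (chromosome 1, 199015081 to 199031055), was at 21.2, 21.0 and 21.0 FPKM in control and at 18.9, 17.6 and 19.0 FPKM in CR. The SD of the control libraries was 0.436% of their mean, the smallest of any member in either group. It fell by 0.18 (SE 0.0513, adjusted p = 0.0317), but the call was lost without any 1 of 5 libraries (all but control replicate 3), with an adjusted p of up to 0.112, without the trend (0.0582) and with the replicate block (0.0677).

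Cyp51, the lanosterol demethylase gene, did not pass, with 66.4, 63.2 and 68.5 FPKM in control and 68.9, 68.3 and 68.5 FPKM in CR (log2 fold change 0.05, 95% interval -0.05 to 0.16). The SD of its CR values was 0.445% of their mean. Ebp, the sterol isomerase gene, was at 8.35, 9.53 and 9.04 FPKM in control and at 10.7, 10.6 and 10.1 FPKM in CR. These groups did not overlap, and Ebp missed the threshold narrowly (log2 fold change 0.20, SE 0.0685, adjusted p = 0.0552). It passed with quantile normalization (adjusted p = 0.0453) and with a filter at 2 FPKM (0.0497). Hsd17b7, a sterol ketone reductase, and Sc5d, a sterol desaturase, overlapped between the groups (adjusted p = 0.943 and 0.416). Within the synthesis enzymes as a whole, 2 of 16 rose, 3 fell and 11 did not pass. The called share, 31.2%, was near the 33.9% of all genes tested. Of the log2 fold changes, 8 were above 0 and 8 below, with a median of 0.01.

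Among the sensors, the gene pairs Insig1 and Insig2, and Srebf1 and Srebf2, had log2 fold changes of opposite sign. Insig1 (chromosome 4, 7315495 to 7323952), itself a classical SREBP target, was at 16.6, 17.9 and 16.1 FPKM in control and at 21.9, 21.3 and 21.7 FPKM in CR. The CR libraries were all above control, and their SD was 1.46% of the mean. Insig1 rose by 0.34 (SE 0.0560, adjusted p = 0.00404). Insig2, which also retains SCAP but is not induced by SREBPs in the same way, was at 10.5, 10.9 and 12.6 FPKM in control and at 9.72, 9.52 and 11.3 FPKM in CR (log2 fold change -0.14, 95% interval -0.35 to 0.07, adjusted p = 0.270). The ratio of Insig1 to Insig2 was 1.58, 1.64 and 1.28 in control and 2.25, 2.23 and 1.92 in CR, without overlap.

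Srebf2, the gene of the main activator of sterol synthesis (chromosome 7, 113663202 to 113720848), was at 28.5, 29.3 and 28.8 FPKM in control and at 24.4, 24.7 and 26.4 FPKM in CR. All CR values were below control, and it fell by 0.19 (SE 0.0496, adjusted p = 0.0216). Leaving out control replicate 2, CR replicate 1 or CR replicate 2 ended this call (adjusted p = 0.0607, 0.0725 and 0.0791). Srebf1, whose products favour fatty acid synthesis (chromosome 10, 45007637 to 45029650), was lower in level, at 3.21, 3.15 and 2.09 FPKM in control and 3.88, 4.33 and 4.18 FPKM in CR. Control replicate 3 was the lowest library, and the groups did not overlap. It rose by 0.44 (SE 0.133, adjusted p = 0.0385). Without control replicate 3 the log2 fold change was 0.29 (adjusted p = 0.0416). The Srebf1 call was lost without each CR replicate (adjusted p = 0.0713, 0.120 and 0.106 for replicates 1, 2 and 3), with quantile normalization (0.0572), with the replicate block (0.0531) and with no filter (0.145). Of its exon bases 13.4% overlap Rai1 on the opposite strand. Rai1 was at 10.6 to 11.7 FPKM in control and 8.16 to 9.34 FPKM in CR. The part of Rai1 reads in the Srebf1 values was not tested. Srebf2 RNA stood 8.88, 9.29 and 13.8 times above Srebf1 RNA in control and 6.29, 5.70 and 6.32 times above it in CR. Scap, the escort gene, was at 18.6 to 19.2 FPKM in control and 19.8 to 20.8 FPKM in CR, without overlap, but did not pass (log2 fold change 0.11, adjusted p = 0.126). Thus 2 of the 5 sensing genes rose, 1 fell and 2 did not pass. That is a called share of 60% in a list of only 5 genes, against 33.9% of all genes tested.

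**Figure D3:**
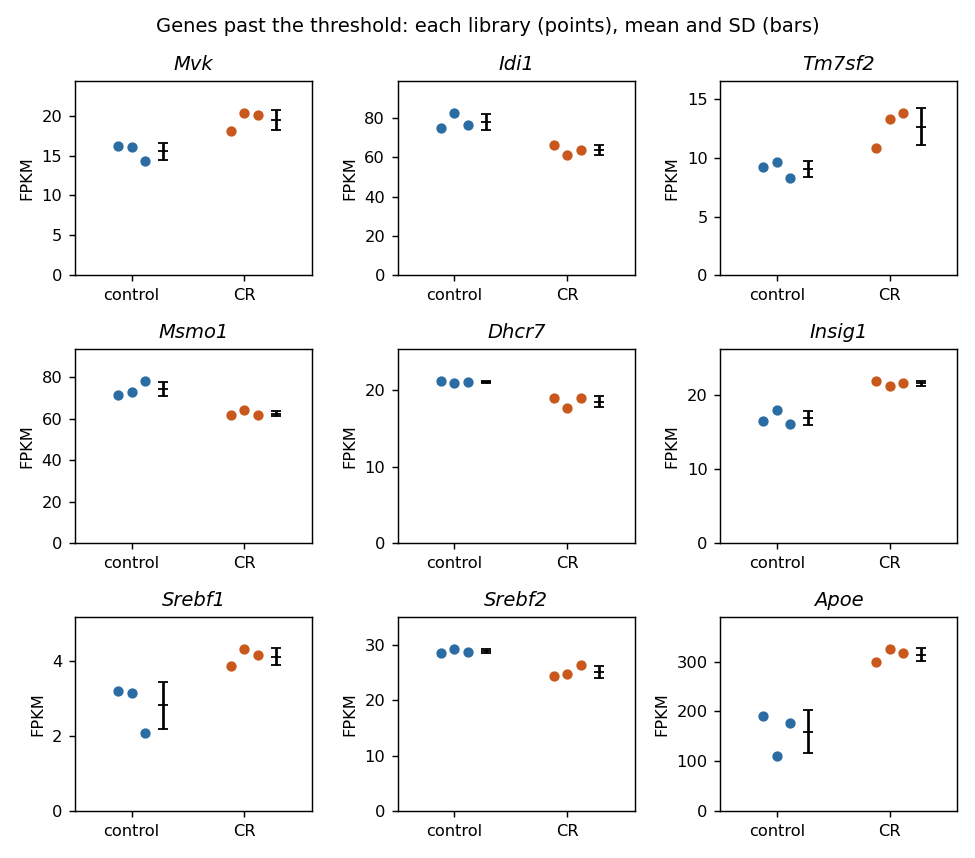
FPKM of the 9 members past the threshold in each library (points in the order of replicates 1 to 3), with the group mean and SD beside them in black and every axis starting at 0. Control in blue and CR in orange do not overlap in any panel, and the shift is under 1.5-fold in 8 panels and 1.97-fold for Apoe.

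Apoe gave the largest difference of the set and was the 1 called gene among the 7 of transport and turnover (14.3%, against 33.9% of all genes tested). Apoe (chromosome 1, 79353916 to 79357932), made mainly by astrocytes, was at 191, 111 and 177 FPKM in control and at 300, 325 and 316 FPKM in CR. Control replicate 2 was far below the other control libraries, and every CR library stood above all 3 of them. Apoe rose by 1.0098 on the log2 scale (SE 0.183, adjusted p = 0.00565), with means of 160 ± 42.9 FPKM in control and 314 ± 12.9 FPKM in CR. Without control replicate 2 the log2 fold change was 0.77 (adjusted p = 0.00178), and the call ended when genes of any level were tested (0.0650). From second place among the members in control, behind Hmgcs1, Apoe moved to first in CR.

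Markers of cells known to make Apoe differed between the same libraries. The 10 astrocyte markers summed to 236, 209 and 249 FPKM in control and to 353, 361 and 392 FPKM in CR. Of the 10, 8 rose (80%, against 17.7% of all genes tested), none fell and 2 did not pass (Slc1a3 and Sox9). The defining marker Aldh1l1 was at 5.32 ± 0.164 and 9.41 ± 0.256 FPKM and Aqp4 at 5.92 ± 1.62 and 14.7 ± 1.74 FPKM. The 8 microglial markers summed to 41.7, 31.6 and 44.8 FPKM in control and to 64.8, 58.4 and 56.1 FPKM in CR. Of these 8, 4 were higher (50%, against 17.7% of all genes tested) and none lower. Control replicate 2, lowest in Apoe, was also lowest in both sums. This was not particular to these cell types. The meningeal, myelin and endothelial marker sums were lowest in that library too (37.6, 34.1 and 8.40 FPKM), while the remaining marker sums were lowest elsewhere. In CR these 3 sums averaged 1.44, 1.43 and 1.06 times control. No astrocyte or microglial marker was at 0 in all libraries, and the part of any cell type in the Apoe result was not tested.

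**Figure D4:**
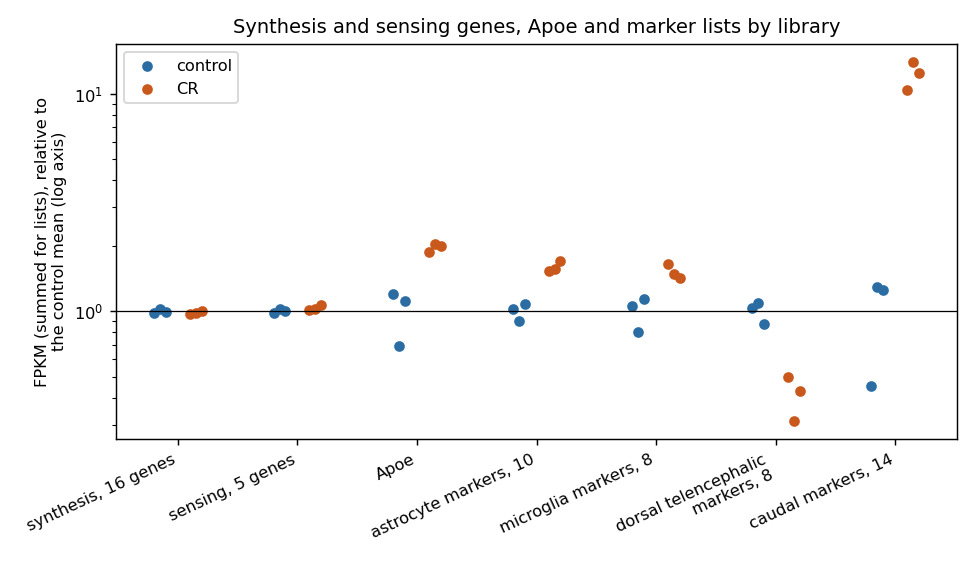
Summed FPKM of the synthesis enzymes, the sensing genes and 4 marker lists, and the FPKM of Apoe, in each library relative to the control mean on a log axis (control in blue, CR in orange). Synthesis and sensing sums stay near 1 in all 6 libraries, Apoe, astrocyte and microglial markers are higher in CR, dorsal telencephalic markers are lower, and caudal markers (diencephalon, midbrain, hindbrain and cerebellum) are far higher.

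The other 6 genes of transport and turnover did not pass. Abca1, which loads lipid onto apolipoprotein particles, was at 2.86, 2.38 and 3.66 FPKM in control and 3.09, 3.24 and 3.51 FPKM in CR (log2 fold change 0.12, 95% interval -0.18 to 0.42). Its CR values lay inside the control range. Cyp46a1, the neuronal enzyme that turns cholesterol into an exportable oxysterol, was at 5.63, 4.74 and 5.67 FPKM in control and at 5.998, 6.20 and 6.27 FPKM in CR. The Cyp46a1 groups did not overlap, but the gene did not pass (log2 fold change 0.18, SE 0.0847, adjusted p = 0.147). Stard4, a cytosolic sterol carrier, showed a similar pattern, with 3.59 to 4.42 FPKM in control and 4.48 to 4.91 FPKM in CR (log2 fold change 0.18, adjusted p = 0.167). Npc1 and Npc2 encode the pair of proteins that export cholesterol from lysosomes. Npc1 was at 5.67 ± 0.902 and 4.87 ± 0.277 FPKM (adjusted p = 0.243) and Npc2 at 35.1 ± 3.998 and 36.0 ± 3.92 FPKM (adjusted p = 0.810). Of the Npc1 exon bases 16.5% are shared with Rmc1 on the opposite strand, which was at 14.6 to 15.1 FPKM in control and 13.7 to 14.4 FPKM in CR. Soat1, which esterifies cholesterol for storage, was at 2.89 ± 0.453 and 2.72 ± 0.149 FPKM (adjusted p = 0.714). The transport genes varied more between control libraries than the enzymes did, with a median SD of 15.7% of the mean against 5.17% for synthesis and 5.58% for sensing, and 5 of the 7 were lowest in control replicate 2. In CR the same medians were 5.49%, 3.96% and 4.36%. Apart from Apoe and Npc2, the transport genes averaged 5.67 FPKM or less in control, below every enzyme but Hsd17b7. The spread of other genes at such levels was not examined, nor the share of all genes lowest in control replicate 2.

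Ratios between neighbouring members, taken within each library, cancel any scaling of that library as a whole. The ratio of Idi1 to Hmgcs1 was 0.325, 0.331 and 0.330 in control and 0.274, 0.260 and 0.260 in CR, a tight pair of groups. That of Msmo1 to Cyp51 was 1.08, 1.15 and 1.14 in control and 0.894, 0.938 and 0.901 in CR. That of Apoe to Abca1 was 66.7, 46.6 and 48.3 in control and 96.9, 100 and 90.0 in CR. Of 6 ratios computed, all but Npc2 to Npc1 separated the groups. Each of those 5 gave p = 0.1 in a two-sided exact permutation test, the smallest value that 3 against 3 libraries allow, and 0.12 after Benjamini-Hochberg adjustment over the 6. The ratios were chosen after the levels had been seen. Each of the 5 that separated holds a member whose own groups did not overlap, so their separation adds no support to the calls. Of all single genes tested, 50.3% had groups that did not overlap, and no such share was computed for ratios.

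Other genes of the pathway were read from 6 lists that do not contain the members. Against 33.9% of all genes tested, the called share was 8.33% for other sterol and isoprenoid synthesis and 41.7% for SREBP processing and degradation. It was 54.5% for lipoprotein receptors and uptake and 30.8% for LXR, efflux and apolipoproteins. For intracellular sterol transfer, esters and oxysterols it was 27.8%, and for fatty acid synthesis 36.4%. Among 12 other genes of sterol and isoprenoid synthesis, 1 rose, none fell and 11 did not pass. The gene that rose was Pdss2, which serves coenzyme Q rather than sterol synthesis, at 6.95 ± 0.560 FPKM in control and 10.3 ± 0.285 FPKM in CR (log2 fold change 0.50, SE 0.0735, adjusted p = 0.00263).

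Genes that process SREBPs or degrade sterol-regulated proteins included 3 that rose and 2 that fell among 12, and 7 did not pass. Pgrmc1, a haem-binding protein of the endoplasmic reticulum, rose from 114 ± 8.61 to 162 ± 5.83 FPKM (log2 fold change 0.51, adjusted p = 0.00149). Rnf145, a ubiquitin ligase of the endoplasmic reticulum, rose from 38.8 ± 1.15 to 47.1 ± 1.78 FPKM (0.27, adjusted p = 0.00522). Erlin1, a membrane protein of the endoplasmic reticulum, fell from 14.2 ± 1.11 to 10.3 ± 0.588 FPKM (-0.42, adjusted p = 0.00539). Fbxw7, a ubiquitin ligase subunit that marks nuclear SREBPs among other proteins, fell from 12.9 ± 2.62 to 9.48 ± 0.119 FPKM (-0.39, adjusted p = 0.0481). The Fbxw7 call was lost without any 1 of 5 libraries (all but control replicate 3), with an adjusted p of up to 0.125.

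Of 11 tested genes of lipoprotein receptors and uptake, 3 rose, 3 fell and 5 did not pass. The sorting receptor gene Sorl1 fell from 5.41 ± 0.132 to 3.63 ± 0.577 FPKM (-0.48, adjusted p = 0.0114, lost with no filter on low values). Lrpap1, a chaperone of this receptor family, rose from 43.0 ± 2.59 to 60.6 ± 0.891 FPKM (0.49, adjusted p = 0.00108). Lipa, the lysosomal acid lipase, rose from 8.56 ± 0.674 to 10.8 ± 0.571 FPKM (0.30, adjusted p = 0.0199), a call lost without control replicate 2, CR replicate 2 or CR replicate 3 (up to 0.0781).

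Genes of the liver X receptors (LXR), which answer to oxysterols, and of efflux and apolipoproteins included 3 that rose and 1 that fell among 13, and 9 did not pass. Nr1h2, the LXR-beta gene, fell from 16.5 ± 0.282 to 13.1 ± 1.09 FPKM (-0.32, SE 0.0691, adjusted p = 0.0117). Nr1h3, the LXR-alpha gene, had 9 to 36 reads per library and overlapped (adjusted p = 0.623), as did the efflux transporter gene Abcg1 at 8.01 ± 0.751 and 8.33 ± 1.59 FPKM (adjusted p = 0.824). Pltp, which encodes a phospholipid transfer protein, rose from 12.2 ± 2.01 to 19.7 ± 1.14 FPKM (0.66, adjusted p = 0.00469) and Clu, apolipoprotein J, from 54.4 ± 7.48 to 81.0 ± 7.44 FPKM (0.57, adjusted p = 0.0058). Lcat, the cholesterol acyltransferase of lipoprotein particles, rose from 1.47 ± 0.367 to 2.40 ± 0.271 FPKM (0.47, adjusted p = 0.0297). The Clu call was lost with no filter on low values, and that of Lcat without any 1 of 5 libraries (all but control replicate 1), with an adjusted p of up to 0.107. The astrocyte markers given beside Apoe were also higher in CR, and their part in the rises of Pltp, Clu and Lcat was not tested.

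Genes of intracellular sterol transfer, esters and oxysterols included 2 that rose and 3 that fell among 18 tested, and 13 did not pass. Nceh1, a cholesteryl ester hydrolase, rose from 4.78 ± 0.502 to 7.77 ± 1.05 FPKM (0.60, adjusted p = 0.00646), and Cyp11a1, which makes pregnenolone from cholesterol, from 0.939 ± 0.176 to 1.93 ± 0.0809 FPKM (0.60, adjusted p = 0.00553). The sterol carrier genes Gramd1a and Gramd1b fell. Gramd1a went from 59.9 ± 5.68 to 46.6 ± 3.98 FPKM (-0.36, adjusted p = 0.0167, lost without CR replicate 2 and with no filter). Gramd1b went from 3.08 ± 0.240 to 2.03 ± 0.111 FPKM (-0.43, adjusted p = 0.0112). Of 11 tested genes of fatty acid synthesis, the programme tied to SREBP-1, 3 rose, 1 fell and 7 did not pass. Me1, the cytosolic malic enzyme, rose from 10.6 ± 2.10 to 26.7 ± 1.98 FPKM (1.27, SE 0.123, adjusted p = 0.000717), the largest log2 fold change of the 6 lists. Its call held in all 17 alternatives, whereas Scd (0.33, adjusted p = 0.0319), Acss2 (0.23, 0.0403) and Elovl6 (-0.37, 0.0408) each lost theirs without 4 or 5 of the 6 libraries. Fasn, the fatty acid synthase at the centre of that programme, was at 44.8, 50.05 and 43.3 FPKM in control and 40.8, 42.3 and 44.8 FPKM in CR, which overlapped (adjusted p = 0.245).

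**Figure D5:**
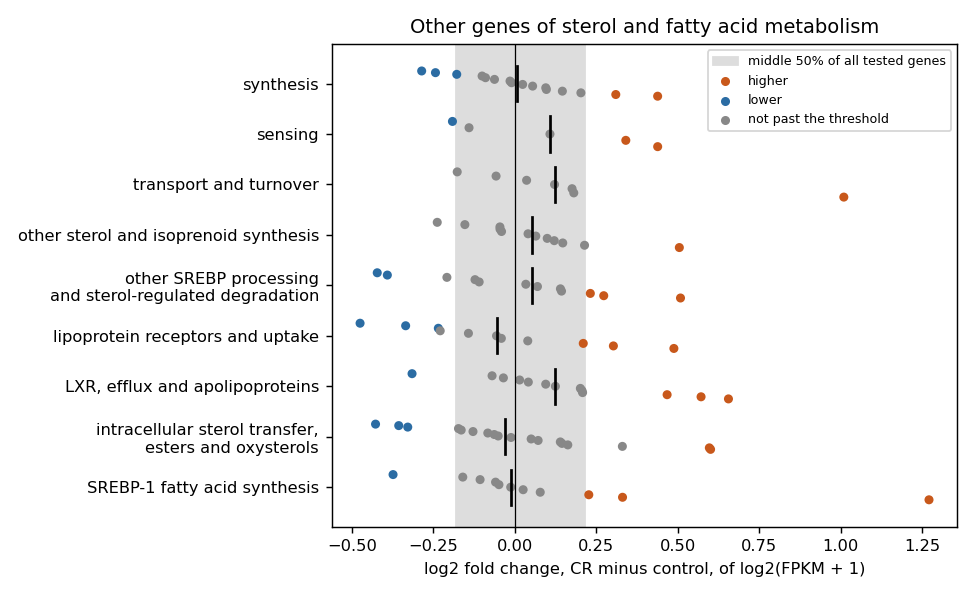
Log2 fold change of every tested member and of every tested gene of the 6 further lists (points; orange higher, blue lower, grey not past the threshold), with the median of each list as a black line and the middle 50% of all genes tested as a grey band. All 9 medians lie inside the band, between -0.06 and 0.12, and Me1 (1.27) and Apoe (1.0098) lie farthest to the right.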

How the data were processed

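Polyadenylated RNA of 6 whole-brain libraries was analysed. The kit was QIAseq Stranded, per the labels' protocols. The submitters' processing notes list STAR 2.7.10a and featureCounts 2.0.1, with cutadapt 1.16, Trimmomatic 0.36 and Trim Galore 0.4.4, and the build mRatBN7.2. The strand setting and annotation release are not given in the sources used here, and reads of antisense neighbours may be mixed. The authors deposited FPKM per gene with exon lengths. FPKM times length was a whole multiple (within 0.05) of 1 step for 100% of values above 0, which gave the reads per gene and the depth.

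The genes averaging 0.5 FPKM or more were fitted with limma 3.58.1 (R 4.3.3) on log2(FPKM + 1) with group as the only term and a trend, two-sided, with Benjamini-Hochberg adjustment and a threshold of 0.05. The scale understates changes of low genes. The script was tested on simulated data. Within each group, libraries differed beyond counting noise (mean chi-square per gene 6.63 to 15.6), so no pair was treated as a duplicate deposit of 1 library; this does not tell separate preparations of 1 sample from separate animals. The members and lists were chosen with earlier results of these data known. All members are named, with up to 4 called genes per list by absolute log2 fold change, and Abcg1, Nr1h2 and Nr1h3 in any case; Fasn was added after its values had been seen. Some genes that this rule names are not reported here. Where several rows had 1 name, the row with the highest mean was used; members had 1 row each. Alternatives were pseudocounts of 0.1 and 0.5, no filter, a filter at 2 FPKM, median-ratio factors, quantile normalization, no trend, robust limma, a replicate block, a covariate for Y-linked RNA, limma-voom on the recovered reads, and leaving out each library. Of the marker lists, choroid plexus and endothelial markers had 0 of 5 and 0 of 3 genes called, and meningeal, erythroid, oligodendrocyte precursor, myelin and progenitor markers 1, 0, 3, 4 and 1 higher and 0, 1, 0, 0 and 2 lower. Neuronal markers had 3 higher and none lower. Of all genes tested, 17.7% were higher and 16.2% lower. Promoter sequences are RefSeq's, on GRCr8.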

Additional observations from a re-analysis of the deposited data

How the results depend on the processing

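No called member changed direction in any of the 17 alternatives, and 3 of 9 (Insig1, Idi1, Msmo1) stayed past the threshold in all of them. With no filter on low values, which tests 30498 genes, 1 member was higher (0 of the synthesis, 1 of the sensing and 0 of the transport genes) and 1378 of all genes were lower. Quantile normalization gave 4 higher synthesis genes and 1 higher sensing gene. With the replicate block, 4 members were higher and 3 lower, with 1 higher sensing gene, and 2352 of all genes were higher and 2093 lower. Replicate numbers were not shared sources by the labels, and deviations of same-numbered libraries correlated at 0.0245, 0.0198 and 0.0454 across genes, so the block is not read as a pairing, although each library correlated best with its own number. Leaving out each library in turn gave 2 to 6 higher and 2 to 4 lower members, 0 to 3 higher synthesis genes, 1 to 2 higher and 0 to 1 lower sensing genes, and 1668 to 2698 higher and 1542 to 2344 lower of all genes. Of the 19 members not called, 6 that lay near 0 changed sign in 12 values: Hmgcs1 with median-ratio factors (-0.00766) and quantile normalization (-0.0862), Cyp51 with quantile normalization (-0.00424), Hsd17b7 and Npc2 with the Y-linked covariate (0.0119 and -0.00913), and, over the libraries left out in turn, Sqle (-0.0441 to 0.0353), Hsd17b7 (-0.0623 to 0.0426), Npc2 (-0.0588 to 0.0924) and Soat1 (-0.128 to 0.0330). The causes were not tested. No member had fewer than 127 reads in a library, and 3 libraries per group leave intervals of about 0.1 to 0.4 on either side of a log2 fold change.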
